A study of Mus musculus with 3 samples.

Results

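The 10 genes described here encode ligands of the tumour necrosis factor (TNF) superfamily, namely Tnf, Lta, Ltb, Tnfsf8, Tnfsf10, Tnfsf11, Tnfsf14, Fasl, Cd40lg and Cd70. They were chosen by symbol, though with earlier results of these data known, and all 10 were found among the 44788 gene symbols of the count table. The data were 3 RNA-sequencing libraries of 1 group: T lymphocytes taken with CD90.2 beads from spleens of female BALB/c mice aged 6 to 8 weeks, cultured in 2% fetal bovine serum and given LZ-8 for 10 h. LZ-8 is a small protein from the mushroom Ganoderma lucidum that acts on immune cells. Because every library was treated, the values describe treated cells and cannot show what LZ-8 changed. Whether the replicates were separate animals or cultures is not stated in the labels, so p-values measure only the spread between these samples, and that spread may be technical.

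TNF superfamily ligands are mostly made as membrane proteins that assemble as trimers, and some are then cut from the cell surface. They bind receptors of the TNF receptor superfamily, which act through TRAF adaptors and NF-kappaB or, for receptors with a death domain, through caspases. In activated T cells these ligands carry help to B cells and dendritic cells, killing of target cells and signals to stroma and bone.

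Replicates 1, 2 and 3 held 13239482, 15007652 and 15683820 counts. Levels are given in CPM (counts divided by library sizes that the TMM method of edgeR had scaled), as mean ± SD with n = 3 libraries. A floor of 3 counts, used as the detection limit, corresponded to 0.186 to 0.236 CPM. Such floors, like the intervals given later, account for counting error alone. All 12 T cell markers were at a mean of 10 CPM or more, with a summed level of 4485 to 4658 CPM. The 7 B cell markers summed to 15.2 to 16.9 CPM and the 6 matched macrophage and monocyte markers to 13.1 to 16.4 CPM. Among the latter, Mpeg1 and Cd68 had the highest means (9.20 and 5.57 CPM), while Csf1r and Fcgr1 had 0 counts. The 6 dendritic cell markers summed to 10.4 to 12.5 CPM, most of it from Zbtb46 (mean 9.90 CPM), with Clec9a and Siglech at 0 counts. The 5 NK cell markers summed to 8.17 to 11.8 CPM, most of it from Eomes (mean 9.06 CPM), with Ncr1 and Klra8 at 0 counts. The 6 neutrophil markers summed to 0.124 to 1.02 CPM. In these bulk libraries a smaller number of cells that express a ligand and less RNA per cell cannot be told apart.

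Most of the ligand genes were expressed, and a few members made up most of the family's level. The means of 7 genes were at 10 CPM or more, those of Tnfsf10 and Fasl lay between 1 and 10 CPM, and Cd70 stayed under 1 CPM in every library. Longer transcripts yield more counts, so genes were ranked by CPM per kilobase of annotated exon. On that scale Ltb, Tnfsf8, Lta, Tnf and Cd40lg made up 89.0% of the summed level of the 10 ligands, and the neighbouring genes Tnf, Lta and Ltb alone 56.4%. The order was Ltb at 59.6 ± 8.34, Tnfsf8 at 57.7 ± 3.57, Lta at 52.0 ± 4.96, Tnf at 44.2 ± 8.86, Cd40lg at 32.6 ± 4.09 and Tnfsf14 at 18.7 ± 1.35 CPM per kilobase. Tnfsf11 at 7.25 ± 0.487, Fasl at 2.61 ± 0.471, Tnfsf10 at 1.52 ± 0.104 and Cd70 at 0.217 ± 0.121 CPM per kilobase followed.

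Of the 9 steps between neighbours in that order, 6 had the same direction in every library and a mean log2 ratio above its SD. The other 3 did not exceed their spread. The log2 ratio of Ltb to Tnfsf8 was 0.04 ± 0.27, that of Tnfsf8 to Lta 0.15 ± 0.23 and that of Tnf to Cd40lg 0.43 ± 0.48. Among the first 4 ligands, Lta exceeded Tnf in each library (log2 ratio 0.25 ± 0.16). Ltb exceeded Lta in each library (0.19 ± 0.12), though by only 0.05 in replicate 2. The place of Tnfsf8 beside Ltb and Lta was not resolved. Since the step from Tnf to Cd40lg did not exceed its spread either, Tnf was not set apart from Cd40lg. Ltb, Tnfsf8 and Lta lay above Cd40lg in every library. Cd40lg had at most 36.8 CPM per kilobase (replicate 3), and the lowest values of Ltb, Tnfsf8 and Lta were 54.4, 54.2 and 46.8. With 3 libraries the smallest two-sided p of an exact sign-flip test is 0.25, and no step passed (adjusted p of 0.375 or more by that exact test). These results depend on single libraries and on the length used. Without replicate 1, Tnfsf8 stood above Ltb and Lta in both remaining libraries (log2 ratio of Ltb to Tnfsf8 -0.12 ± 0.05, of Tnfsf8 to Lta 0.26 ± 0.18), and without replicate 3, Tnf stood above Cd40lg in both (0.68 ± 0.28). With the longest coding transcript as the length, Ltb stood above Tnfsf8 in every library (log2 ratio 0.42 ± 0.27), and 7 of the 9 steps were ordered. Among 14301 protein-coding genes with a count, Ltb stood at the 95.7 percentile per kilobase, Cd40lg at 90.3, Tnfsf14 at 81.6, Tnfsf11 at 62.0, Fasl at 45.0 and Tnfsf10 at 39.0.

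**Figure D1:**
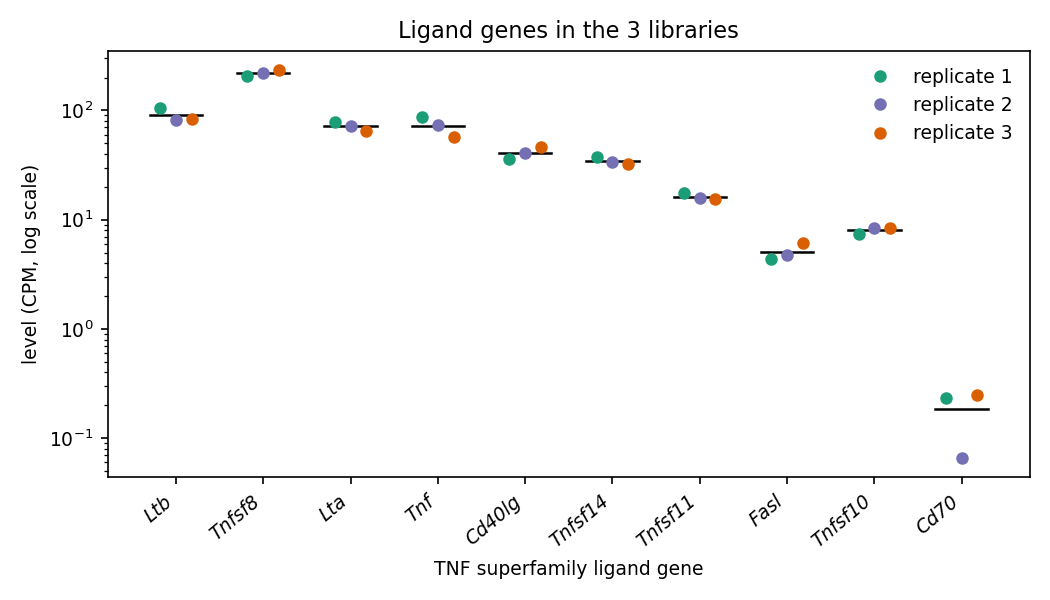
Level of each ligand gene (CPM, log axis) in each of the 3 libraries (points) with their mean (line), in the order of the level per kilobase. Tnfsf8 lay near 220 CPM in all libraries, while Cd70 lay below 0.25 CPM.

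Tnf, Lta and Ltb sit side by side in the class III region of the major histocompatibility complex, where the 3 genes span 10913 bases of chromosome 17 (GRCm38 coordinates of the GENCODE annotation, whole gene bounds, here and below). Ltb lies from 35194439 to 35196320 on the plus strand, Tnf from 35199381 to 35202007 on the minus strand and Lta from 35203165 to 35205351 on the minus strand. The gap between Ltb and Tnf is 3060 bases and that between Tnf and Lta 1157 bases, and the exons of none of the 10 ligand genes overlap those of another annotated gene. These 3 neighbours were all highest in replicate 1 before the length and GC trend (below) was removed, as were 36.8% of all genes tested. After removal only Tnf was. The promoters of the 3 neighbours are shown with that of Tnfsf8, the ligand gene with the most counts. Each runs from 250 bases before to 50 bases after the start site annotated by RefSeq (GRCm38.p6), with motif matches in capitals.

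Tnf, chr17:35201958-35202257, minus strand: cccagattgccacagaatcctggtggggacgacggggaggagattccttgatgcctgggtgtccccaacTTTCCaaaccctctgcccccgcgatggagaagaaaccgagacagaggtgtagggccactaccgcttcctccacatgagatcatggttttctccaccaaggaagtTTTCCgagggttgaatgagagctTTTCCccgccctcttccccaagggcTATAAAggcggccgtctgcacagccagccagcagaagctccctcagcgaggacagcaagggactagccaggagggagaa
Lta, chr17:35205302-35205601, minus strand: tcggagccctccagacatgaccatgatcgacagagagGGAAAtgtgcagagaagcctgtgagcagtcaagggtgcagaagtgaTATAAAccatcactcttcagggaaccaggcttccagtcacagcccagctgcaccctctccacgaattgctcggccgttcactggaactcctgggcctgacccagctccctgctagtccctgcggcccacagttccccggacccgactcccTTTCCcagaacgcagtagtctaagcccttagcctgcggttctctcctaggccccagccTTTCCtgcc
Ltb, chr17:35194257-35194556, plus strand: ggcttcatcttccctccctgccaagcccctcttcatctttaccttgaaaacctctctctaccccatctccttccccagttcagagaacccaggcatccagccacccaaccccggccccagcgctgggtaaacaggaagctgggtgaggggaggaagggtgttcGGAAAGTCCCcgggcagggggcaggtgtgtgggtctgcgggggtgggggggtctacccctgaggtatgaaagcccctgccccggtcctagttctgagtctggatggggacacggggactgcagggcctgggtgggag
Tnfsf8, chr4:63861235-63861534, minus strand: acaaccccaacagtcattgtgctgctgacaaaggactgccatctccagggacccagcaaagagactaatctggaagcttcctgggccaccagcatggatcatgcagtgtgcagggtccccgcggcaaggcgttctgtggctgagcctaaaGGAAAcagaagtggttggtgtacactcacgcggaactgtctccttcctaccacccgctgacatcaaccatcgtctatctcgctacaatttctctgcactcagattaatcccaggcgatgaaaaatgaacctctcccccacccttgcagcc

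Promoter sequences were found for 8 of the 10 ligand genes, without Cd40lg and Cd70. The core GGAAA, which NFAT factors recognise, was present on either strand in 8 of the 8, with 3 matches each in Tnf and Lta, 4 in Tnfsf14, 2 in Fasl and 1 in each of the others. This core is short, and 61.3% of all 32851 promoters of the same length hold it. The NF-kappaB consensus was matched in Ltb alone, from position -87 to -78 as GGAAAGTCCC, where it overlaps the GGAAA match, and 8.46% of all promoters hold a match. The AP-1 site TGANTCA was found in Tnfsf14 alone, as TGAGTCA from -160 to -154 (7.81% of all promoters), and GCGNGGGCG, the EGR site, in none of the 8 (5.55%). A TATAAA box stood at -29 to -24 in Tnf and, on the other strand, at -32 to -27 in Tnfsf11. In Lta it stood at -167 to -162, and 13.6% of all promoters hold one. A match is a description of the letters and does not show a bound site.

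**Figure D2:**
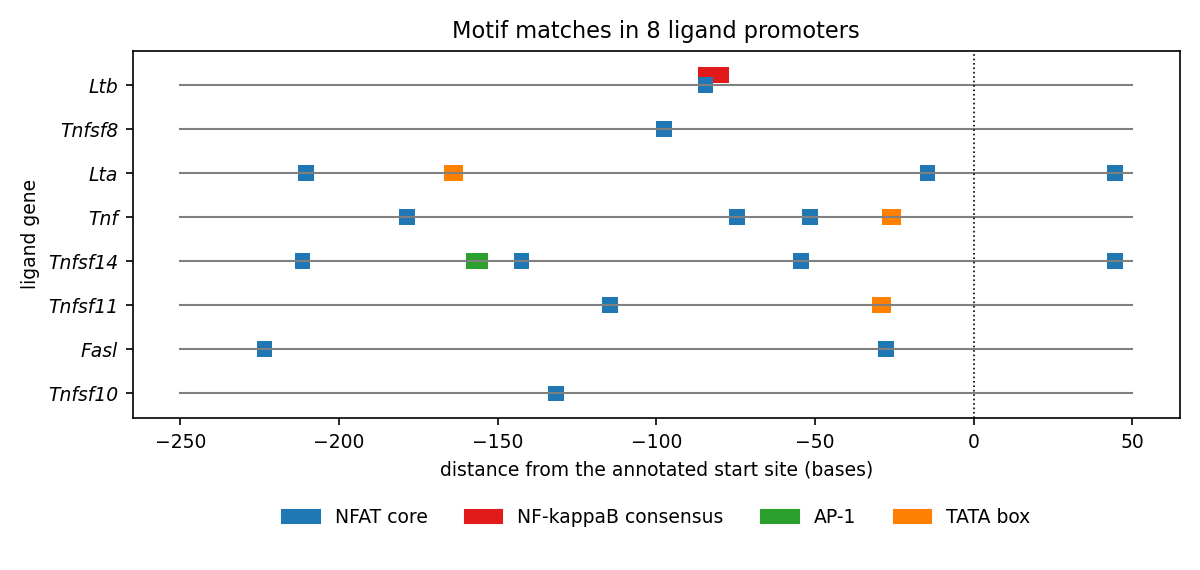
Positions of motif matches (coloured bars) on either strand in the 8 promoters, by distance from the annotated start site in bases. All 8 carry the NFAT core, and 1 promoter each carries the NF-kappaB consensus (Ltb) and the AP-1 site (Tnfsf14).

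Messenger RNAs of inflammatory cytokines often carry AU-rich elements in the 3′ untranslated region, which decay factors such as tristetraprolin bind. Among the 10 ligand genes the nonamer TTATTTATT was present in Tnf (5 overlapping copies) and Lta (1 copy) and in none of the other 8. Of 2616 coding genes whose untranslated region is within a factor of 0.8 of the 764 bases of Tnf in either direction, 4.24% hold the nonamer, and for Lta (572 bases) the share is 3.45% of 2290 genes. The densest 30 bases of each are shown with the pentamer ATTTA in capitals.

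Tnf, chr17:35199679-35199708, minus strand: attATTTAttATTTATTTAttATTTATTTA
Lta, chr17:35203408-35203437, minus strand: tATTTAtggagagaaaagttaagttATTTA

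The Tnf stretch holds 5 pentamers that partly overlap and begins 437 bases after the stop codon, and the Lta stretch holds 2. Over the whole untranslated region Tnf had 8 pentamers, against a median of 1 in genes of like length. The longer regions of Tnfsf8 (2799 bases, 10 pentamers, median of like genes 5) and Tnfsf10 (3998 bases, 8 pentamers, median 7) held no nonamer, and the 156 bases of Ltb held no pentamer.

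Tnf, the inflammatory cytokine that gives the family its name, had the widest spread between the libraries among the ligand genes of 10 CPM or more, before the length and GC trend described below was removed. It had 86.2, 74.0 and 57.2 CPM in replicates 1, 2 and 3, from 1097, 1122 and 924 counts, with a coefficient of variation of 20.05% against a median of 9.31% in 200 genes of like level. The highest and lowest library differed by 1.51-fold. After removal the coefficient of variation of Tnf was 14.0% and that of Cd40lg, at 16.8%, was the wider. Lta, the lymphotoxin that is secreted alone or held at the membrane by Ltb, had 78.5, 72.5 and 64.8 CPM and likewise was highest in replicate 1 and lowest in replicate 3. Ltb, the membrane anchor of that complex, had 105, 82.4 and 83.6 CPM, with replicate 1 above the other two, which lay close together. The log2 ratio per kilobase of Ltb to Lta, the chains of the membrane lymphotoxin, was 0.29, 0.05 and 0.23 in replicates 1, 2 and 3.

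Tnfsf8, the ligand of CD30, had 206, 219 and 234 CPM in replicates 1, 2 and 3, from 2628, 3321 and 3771 counts. Its range was 1.13-fold, with replicate 3 highest. Cd40lg, through which helper T cells license B cells and dendritic cells, had 35.8, 40.5 and 46.0 CPM, again highest in replicate 3, a range of 1.28-fold. Tnfsf8 lies on chromosome 4 from 63831308 to 63861347 and Cd40lg on chromosome X from 57212143 to 57224042.

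The libraries differed beyond counting noise for 5 of the 9 ligand genes that could be tested, by a chi-square test of the 3 counts with Benjamini-Hochberg adjustment over all 15392 genes tested, which compares libraries and not conditions. The background was 42.8% of all genes called, so the share of called ligands is close to that of other genes and is no result about the family. The adjusted p by this test was 3.90e-18 for Tnf, 2.63e-10 for Ltb, 3.04e-05 for Tnfsf8, 0.000308 for Lta and 0.000446 for Cd40lg. Tnf, Lta and Ltb were highest in replicate 1, which gives 3 of 9 ligands against 17.9% of all genes tested that were called with replicate 1 highest. Tnfsf8 and Cd40lg were highest in replicate 3, or 2 of 9 against 19.1%, and 0 of 9 were called with replicate 2 highest against 5.76%. Against the spread that edgeR estimated for genes of like level, in place of counting noise alone, none of the 9 was called (0 at an adjusted p of 0.05 and 0 at an unadjusted p under 0.05, with 2.30% of all genes called). The smallest unadjusted p by that measure was 0.0935, for Tnf. That spread was estimated from the same 3 libraries and so already holds their differences. A gene not called by it is therefore not shown to be alike in the libraries.

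Replicates 1 and 3 also differed along transcript length and GC content over all genes, and the share of an 18S ribosomal RNA copy was 5.83%, 2.37% and 0.992% of counts in replicates 1, 2 and 3. Most ligand genes followed this trend, to different degrees. For Cd40lg and Tnfsf11 the trend (log2 -0.11 and 0.05, replicate 3 minus replicate 1) ran opposite to the observed difference (0.36 and -0.18). Lta, with 55.7% GC, had a log2 difference of replicate 3 minus replicate 1 of -0.28 before and -0.01 after the trend of all genes with length and GC was removed. Tnfsf8, with 42.6% GC, had 0.18 before and -0.00011 after, and neither gene was called after removal (adjusted p = 0.955 and 0.476, chi-square test). Tnf had -0.59 before and -0.41 after and remained called (adjusted p = 1.28e-08), as did Cd40lg with 0.36 before and 0.47 after (adjusted p = 5.67e-07). Ltb had -0.33 before and 0.02 after, and was still called (adjusted p = 0.00221) because replicate 2 then lay lowest, at 82.2 CPM against 93.4 and 94.5 CPM. After removal 3 of the 9 were called, against 35.9% of all genes. Without replicate 1, Ltb (adjusted p = 0.848) and Cd40lg (adjusted p = 0.0701) were not called. Without replicate 3, Lta (adjusted p = 0.197), Tnfsf8 (adjusted p = 0.0874) and Cd40lg (adjusted p = 0.146) were not. Tnf was called in each of these chi-square tests.

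**Figure D3:**
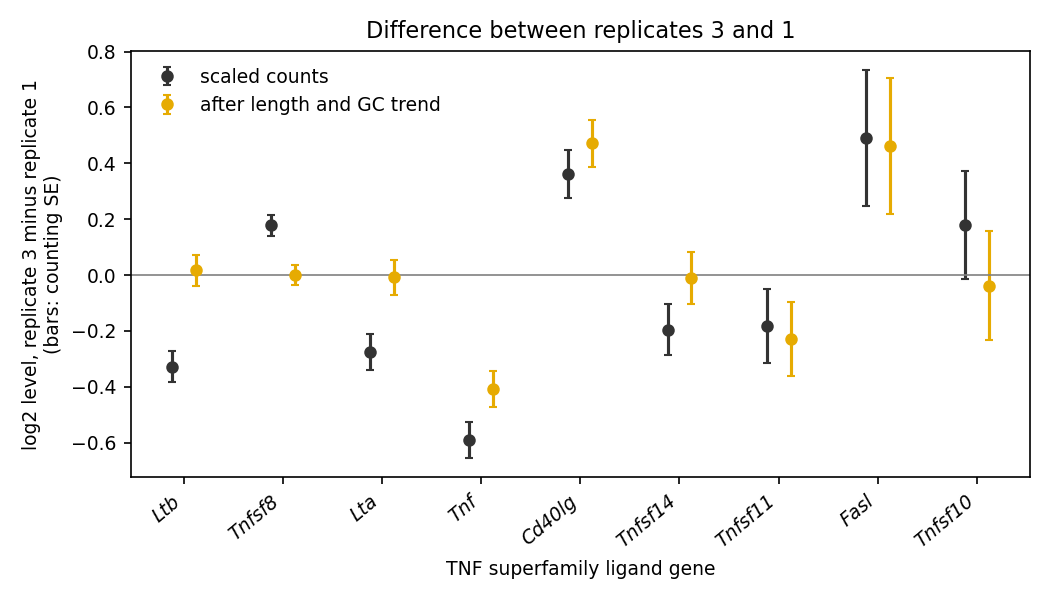
Log2 difference in level of replicate 3 minus replicate 1 for 9 ligand genes (Cd70 left out for its low counts), from scaled counts (dark) and after the trend with transcript length and GC content was removed (yellow), with the counting SE as bars. Lta, Ltb, Tnfsf8, Tnfsf10 and Tnfsf14 moved to near 0. Tnf went from -0.59 to -0.41, Cd40lg from 0.36 to 0.47, Fasl from 0.49 to 0.46 and Tnfsf11 from -0.18 to -0.23.

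**Figure D4:**
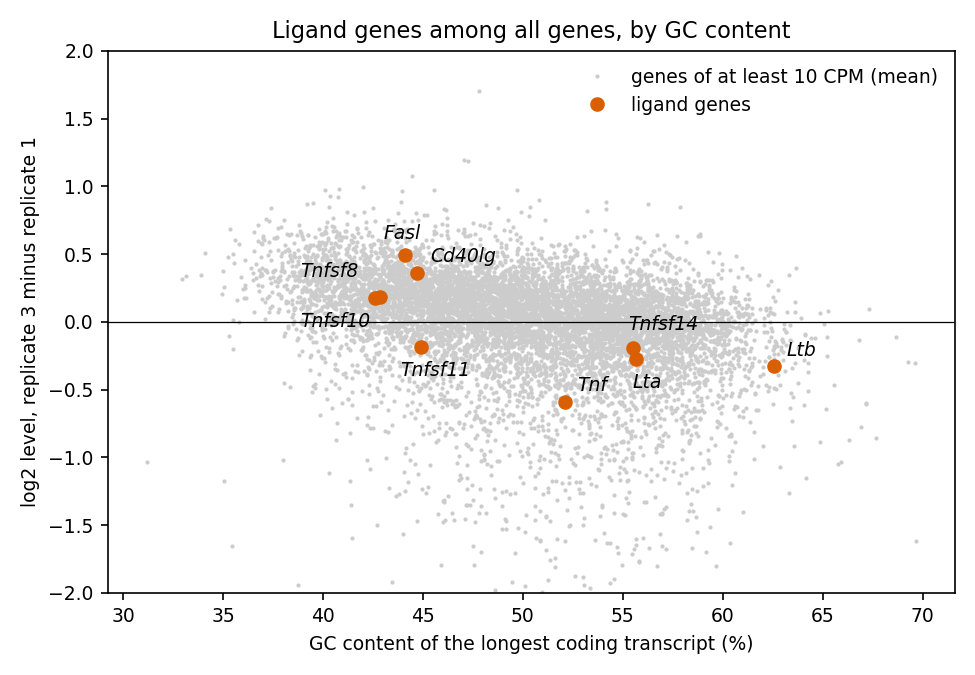
GC content of the longest coding transcript (%) against the log2 difference of replicate 3 minus replicate 1, for 8971 genes whose mean reached 10 CPM (grey, with 34 genes beyond the axis) and 9 ligand genes (orange). The ligand genes with the highest GC content (Ltb, Lta, Tnfsf14 and Tnf) lay below 0, as did Tnfsf11, and Tnfsf8, Tnfsf10, Fasl and Cd40lg lay above it.

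The remaining ligands of intermediate level did not pass the test. Tnfsf14, also called LIGHT, had 37.3, 33.6 and 32.6 CPM in replicates 1, 2 and 3, and Tnfsf11, the RANK ligand that drives osteoclast formation, had 17.4, 15.8 and 15.4 CPM. Both were highest in replicate 1 (adjusted p = 0.152 and 0.479, chi-square test). Tnfsf14 lies on chromosome 17 from 57189492 to 57194177, next to Cd70, which lies from 57145997 to 57149777, and Tnfsf11 lies on chromosome 14 from 78277445 to 78308043.

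The death ligands were present at low levels. Fasl, which kills through the receptor Fas, had 55, 72 and 98 counts in replicates 1, 2 and 3, or 4.32, 4.75 and 6.07 CPM. Tnfsf10, also called TRAIL, had 94, 126 and 135 counts, or 7.38, 8.31 and 8.36 CPM. Both were lowest in replicate 1 without passing the chi-square test (adjusted p = 0.161 and 0.695). The exact Poisson 95% intervals of the Fasl level ran from 3.25 to 5.62 CPM for replicate 1 and from 4.93 to 7.40 CPM for replicate 3. They overlapped, which is no test of a difference. For Fasl the log2 difference of replicate 3 minus replicate 1 was 0.49, with a counting SE of 0.24. Fasl lies on chromosome 1 from 161780689 to 161788495 and Tnfsf10 on chromosome 3 from 27317028 to 27342427.

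Cd70, the ligand of CD27, had 3, 1 and 4 counts in replicates 1, 2 and 3, at or near the floor of 3 counts, and too few to be tested. Its neighbour on the chromosome, Tnfsf14, had 475, 509 and 526 counts in the same libraries. The pooled level per kilobase of Tnfsf10, the next ligand above Cd70, was 7.10-fold higher (exact 95% interval 3.56 to 16.6).

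Ligands and their receptors were then set side by side per kilobase of exon, in 14 pairs. The ligand was higher in every library in 9 pairs and the receptor in 4. Tnf and Lta stood 7.51-fold and 8.93-fold above the death-domain receptor Tnfrsf1a, at 5.87 ± 1.04 CPM per kilobase. The log2 ratio of Tnf to Tnfrsf1a was steady between libraries, at 2.91 ± 0.04, and that of Lta to Tnfrsf1a was 3.16 ± 0.12. With the longest coding transcripts as lengths, these ratios were lower, at 2.64 and 2.89. The second TNF receptor, Tnfrsf1b, was at 43.5 ± 2.74 CPM per kilobase, and the log2 ratio of Tnf to it was 0.01 ± 0.21, with both signs among the libraries, and -0.09 and -0.01 without replicate 1 or 2. Lta exceeded Tnfrsf1b by a log2 ratio of 0.26 ± 0.05.

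Several ligands had receptors at low levels in the same libraries. Tnfsf8 was 42.2-fold above its receptor Tnfrsf8 (log2 ratio 5.40 ± 0.20), and Cd40lg was 26.7-fold above Cd40, a receptor of B cells and other antigen-presenting cells (log2 ratio 4.74 ± 0.32). Ltbr, the receptor of the membrane lymphotoxin and of Tnfsf14, had 3, 3 and 10 counts. Pooled over libraries, Ltb was 382-fold above it (exact 95% interval 235 to 669) and Tnfsf14 120-fold (73.8 to 211). Tnfsf11 faced 4, 2 and 1 counts of its receptor Tnfrsf11a and 2, 2 and 12 counts of its decoy Tnfrsf11b, with pooled ratios of 271-fold (131 to 678) and 55.9-fold (34.2 to 98.4).

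The opposite was seen for 4 pairs. Tnfrsf14, also called HVEM, was at 167 ± 13.3 CPM per kilobase, 8.93-fold above Tnfsf14 (log2 ratio of ligand to receptor -3.16 ± 0.21). Cd27, a costimulatory receptor of naive T cells, was at 103 ± 4.43 CPM per kilobase, and its pooled ratio to Cd70 was 475-fold (exact 95% interval 241 to 1100). Fas was 4.22-fold above Fasl and Tnfrsf10b, the TRAIL receptor, 2.42-fold above Tnfsf10. With the longest coding transcripts as lengths, the log2 ratio of Tnfsf14 to Tnfrsf14 was -3.45, that of Fasl to Fas -2.56 and that of Tnfsf10 to Tnfrsf10b -1.97, in the same direction. No pair passed the exact sign-flip test, whose smallest two-sided p is 0.25 (adjusted p of 0.269 or more).

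**Figure D5:**
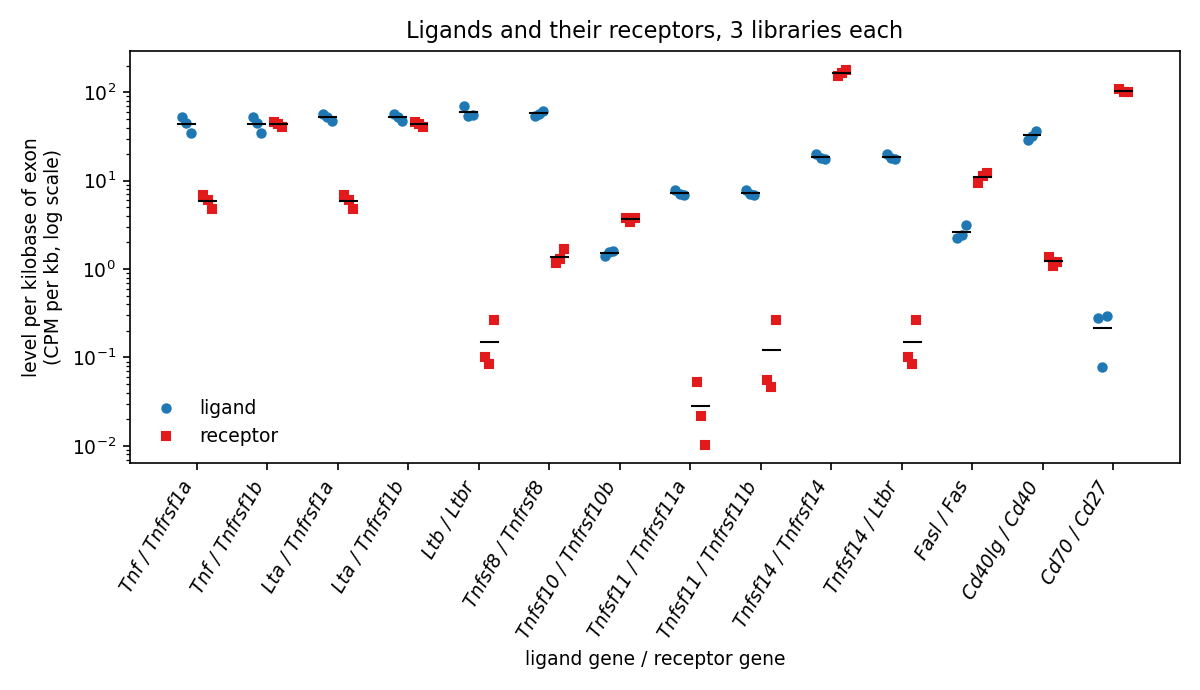
Level per kilobase of exon (CPM per kilobase, log axis) of each ligand (blue circles) and receptor (red squares) in the 3 libraries, with the mean as a line, for 14 pairs. Tnfrsf14 and Cd27 lay above their ligands, and Ltbr, Tnfrsf11a and Tnfrsf11b lay lowest among the receptors.

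Of the 8 other ligands of the superfamily none reached a mean of 10 CPM and 5 stayed below 1 CPM throughout, where Tnfsf13, Tnfsf18 and Eda had 0 counts in all 3. The most abundant per kilobase were Tnfsf4, the OX40 ligand, at 3.42 ± 0.721 CPM per kilobase, and Tnfsf9, the ligand of Tnfrsf9, at 2.40 ± 0.612 CPM per kilobase, which places Tnfsf4 between Tnfsf11 and Fasl and Tnfsf9 between Fasl and Tnfsf10 in level. Tnfsf4 had 4.87, 6.53 and 7.495 CPM in replicates 1, 2 and 3. It was the 1 gene called of the 4 tested (adjusted p = 0.0495, chi-square test), against 42.8% of all genes, and it was not called once the length and GC trend was removed (adjusted p = 0.0869).

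Most listed genes for the release, signalling and decay of the ligands were at 10 CPM or more. In the shedding list 5 of 7 genes had a mean of 10 CPM or more, led per kilobase by the proteases Adam10 at 31.4 ± 2.53 and Adam17, which releases TNF, at 17.1 ± 1.53 CPM per kilobase. Of the 6 tested, 3 differed between the libraries, each highest in replicate 3, and none of the 6 was called after the length and GC trend was removed. All 13 adaptor genes were at 10 CPM or more, led by the ubiquitin-editing enzyme Tnfaip3 at 41.9 ± 3.42 and the ubiquitin ligase Birc3 at 33.04 ± 0.624 CPM per kilobase, and 9 differed between the libraries, 8 of them highest in replicate 3, and 6 of the 9 remained called after removal. All 10 genes of messenger RNA decay were at 10 CPM or more, led by Zfp36l1 at 97.1 ± 7.24 and Khsrp at 86.7 ± 5.94 CPM per kilobase, and 9 differed, of which 6 remained after removal. In the receptor list 9 of 14 genes reached 10 CPM, and 7 of the 11 tested differed, 3 highest in replicate 1 and 4 in replicate 3, of which 5 remained after removal. These counts stand beside 42.8% of all genes called by the chi-square test, 17.9% with replicate 1 and 19.1% with replicate 3 highest, and 35.9% after removal. Against the spread that edgeR estimated, 0 genes of these lists were called, and 0 had an unadjusted p under 0.05, so nothing is read from the counts about the lists.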

How the data were processed

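RNA of the 3 samples was sequenced on an Ion PI chip (Ion Proton kit), per the labels. The values deposited by the authors are raw, unscaled read counts for each symbol in 1 table, and each library has its own column. The submitters' processing notes name mm10 as the build. The aligner, counter, annotation, strand setting and filters were not given in the sources used here, so reads of near-identical or overlapping genes are uncertain.

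Counts were scaled with TMM factors of 0.962, 1.01 and 1.03 (edgeR 4.0.16, R 4.3.3). With 1 group there was no contrast, so the libraries were compared by a chi-square test of the 3 counts over genes expected at 5 counts or more in every library, with Benjamini-Hochberg adjustment at 0.05. It was tested on simulated counts that held counting noise and set changes in some genes. Those counts had no length or GC trend, unlike these libraries, so they do not check the calls made here. The trended dispersion of edgeR gave the wider spread. Length and GC trends were robust splines with 6 degrees of freedom, fitted to 10280 genes of at least 5 CPM. Exon lengths, coordinates and untranslated regions were those of GENCODE M21 (GRCm38). There, 30997 symbols were found as written and 1224 by an older name, which gave 92.6% of the tested genes an annotation. Promoters came from RefSeq. Alternatives were DESeq2 1.42.0 size factors, total counts, other filters and lengths, and leaving out each library.

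The members and lists were chosen with earlier results of these data known. All members and all receptors of the pairs are named, and in the other ligand, shedding, adaptor and decay lists the 2 genes highest per kilobase. Of the genes under 1 CPM in those lists, only those with 0 counts in every library are named. Tnfsf4 was named further for its call, after its values were seen. Of the marker lists, Adgre1 was not matched. Protein sequences were not used here.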

Additional observations from a re-analysis of the deposited data

How the results depend on the processing

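Mean CPM of the 10 ligand genes moved by less than the SD between libraries under DESeq2 size factors and total counts only. The same held without each replicate, but leaving out 1 of 3 libraries can hardly move a mean by more, so that is no check. The count of 5 ligand genes that differ between libraries held with DESeq2 size factors, total counts only, no filter on low counts and an expected count of at least 20. It was 3 with the length and GC trend removed and 0 with the negative binomial spread, where 314 genes in all were called. Without 1 replicate it ranged from 2 to 5 ligand genes and from 3555 to 6403 of all genes. The log2 ratio of Ltb to Tnfsf8 ranged from -0.12 to 0.13 when 1 replicate was left out, negative without replicate 1. That of Tnf to Tnfrsf1b ranged from -0.087 to 0.12, negative without replicate 1 and without replicate 2 (-0.01). The cause was not tested. Fewer samples entered the tests without a replicate. Against genes of at least 1 CPM in every library the percentiles per kilobase were lower, at 94.0 for Ltb and 15.2 for Tnfsf10. Depth limits Cd70, Ltbr, Tnfrsf11a and Tnfrsf11b, whose counts were from 1 to 12. No paired analysis was possible because all libraries belong to 1 group.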
